A study of Mus musculus with 78 samples.

Results

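The right common carotid artery (RCA) of mice whose left common carotid artery (LCA) had been partially ligated was compared between 2 weeks and 48 h after surgery. The comparison used the 10 RCA arrays labelled 2wk and the 9 labelled 48h, 19 of 78 arrays in the series, with treatment as a covariate. The RCA arrays at 12 h and 24 h (20 arrays) and the LCA arrays of the same 19 mice were used to place the values. Each array held endothelium-enriched RNA flushed from 1 artery of 1 mouse, and the arrays of 2 times came from different mice. Vehicle-treated mice numbered 5 at each time. Mice given atorvastatin, a statin that inhibits cholesterol synthesis, at 10 mg/kg/day numbered 4 at 48 h and 5 at 2 weeks, with treatment starting 2 days before the operation. Every mouse had the ligation on the left side, so the RCA is the contralateral artery of an operated animal, and no artery of an unoperated mouse was compared. Strain, age and sex were not given in the labels used here.

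Partial ligation closes most of the branches downstream of the left carotid and leaves it with low, disturbed flow, while the right carotid keeps its flow and serves as the control of the same mouse. Endothelial cells line the vessel and read flow through transcription factors such as Klf2 and Klf4, which are known to hold genes of vasodilation and anticoagulation high under steady flow. A flush of the lumen takes mostly endothelium, but it can also carry RNA of smooth muscle from the wall below, of fibroblasts around the artery and of blood.

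Endothelial markers were high in the flushes, and some markers of other cell types were present on every array. Of 15 endothelial markers, 13 lay above the array median on all 19 arrays, and their mean log2 level ran from 9.31 to 9.84 at 48 h and from 9.57 to 9.82 at 2 weeks. Of the 14 tested, 0 were called, and their changes lay between -0.15 and 0.22 on the log2 scale. Pecam1, the adhesion molecule of endothelial junctions, had a mean log2 level of 11.59 at 48 h and 11.60 at 2 weeks. Among markers of other cell types, those of smooth muscle had called members. The mean of 8 smooth muscle markers lay between 4.74 and 5.16 at 48 h and between 5.17 and 6.09 at 2 weeks, with vehicle array 1 at 2 weeks at the edge of the 48 h range. Acta2 and Lmod1 were above the array median on all 19 arrays, and Actg2 and Des were below it on all 19. The mean of the 5 markers that passed the filter on low levels ran from 5.58 to 6.37 and from 5.98 to 7.54, and vehicle array 1 at 2 weeks alone overlapped the 48 h range. No erythroid, fibroblast or macrophage marker was called. The mean of 3 erythroid markers lay between 3.64 and 5.54 at 48 h and between 4.08 and 9.27 at 2 weeks. The mean of 11 fibroblast markers lay between 5.97 and 7.23 at 48 h and between 4.67 and 7.57 at 2 weeks, and that of 12 macrophage markers between 4.05 and 5.92 and between 3.56 and 5.69. Of the fibroblast markers, Dcn, Pi16, Dpt and Mfap5 were above the array median on all 19 arrays. All 5 B cell markers were below the array median on every array. In such bulk RNA, fewer cells of a type and less RNA per cell cannot be told apart. One array of atorvastatin-treated mice at 2 weeks, array 9, had a mean of 8.28 over 12 skeletal muscle markers against 3.62 to 3.91 at 48 h, and vehicle array 5 at 48 h correlated least with its group (mean r = 0.946). The ratio of 3' to 5' Gapdh control signal, a sign of RNA integrity, was 4.10 ± 0.42 on the log2 scale (SD, n = 9) at 48 h and 3.88 ± 0.30 (SD, n = 10) at 2 weeks (exact permutation test within treatments, two-sided, p = 0.279, adjusted over 2 ratios 0.279), and that of beta-actin was -0.30 ± 0.21 and -0.45 ± 0.12 (exact p = 0.0714, adjusted 0.143). The treatments were not alike in this. Under vehicle the Gapdh ratio was 4.326 ± 0.198 (SD, n = 5) at 48 h and 3.805 ± 0.278 (SD, n = 5) at 2 weeks. Under atorvastatin it was 3.813 ± 0.484 (SD, n = 4) and 3.956 ± 0.334 (SD, n = 5). The beta-actin ratio was -0.174 and -0.477 under vehicle, and -0.454 and -0.431 under atorvastatin. Differences within a treatment were not tested.

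**Figure D1:**
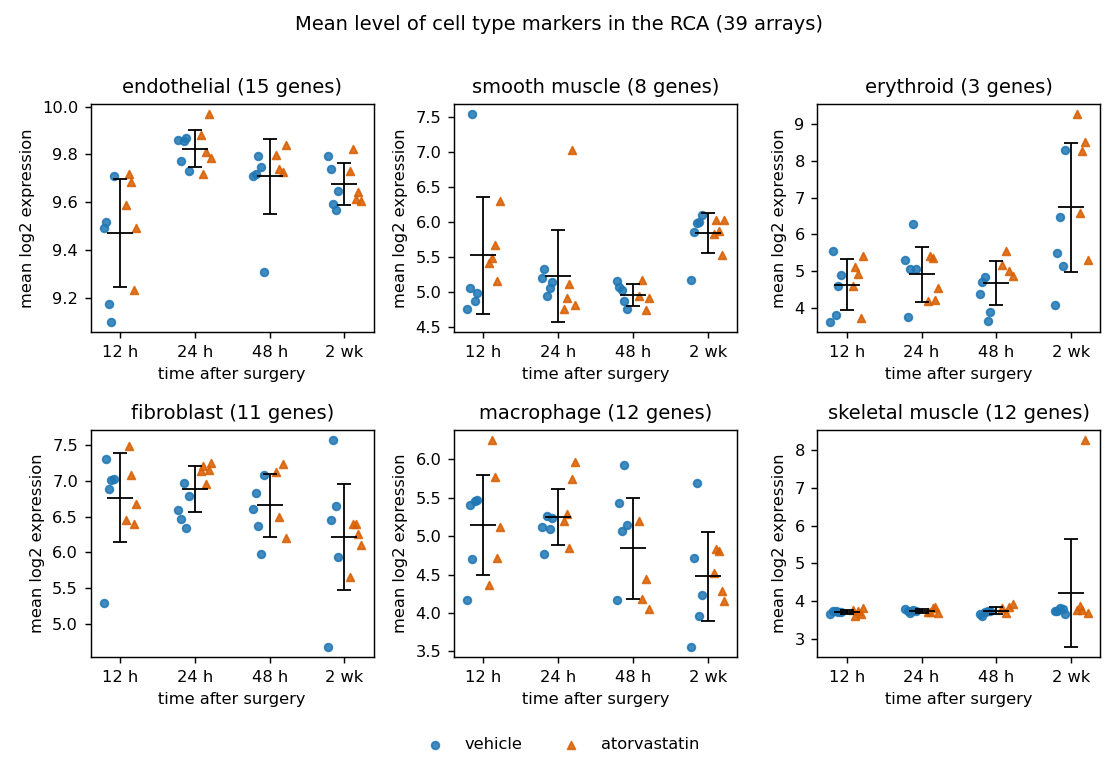
Mean log2 expression of cell type marker lists on each of the 39 RCA arrays (points, by treatment) at 12 h, 24 h, 48 h and 2 weeks, with the mean and SD of all arrays of a time in black. The means of smooth muscle and erythroid markers were higher by value at 2 weeks than at 48 h, the erythroid ranges overlapped and no erythroid marker was called, endothelial markers lay in a narrow band, and 1 atorvastatin array at 2 weeks stood apart for skeletal muscle markers.

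Few genes passed the test in the control artery. Of 10216 genes tested, 60 (0.587%) passed limma with a Benjamini-Hochberg adjusted p under 0.05, of which 11 (0.108%) were higher at 2 weeks and 49 (0.48%) lower. The rises included genes of the smooth muscle contractile apparatus and Klf2, and the falls included genes of mitosis and of the collagen matrix. Of the 60, 18 changed by more than 1 on the log2 scale, and the median change was 1.13 for the rises and -0.68 for the falls. All 60 had the same direction in vehicle-treated and in atorvastatin-treated mice, as had 4999 of the 10216 tested genes, but the 60 were chosen on the change over the same arrays, which largely fixes that count. Over all tested genes the median change was -0.04, with 4043 genes (39.6%) on the positive side and 6173 (60.4%) on the negative side, and 1373 had an unadjusted p under 0.05. In 4 genes the arrays of the 2 times did not overlap at all: Klf2 was higher (1 gene, 0.00979% of those tested), and Col8a1, Sparc and Nucb1 were lower (3 genes, 0.0294%).

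The number of calls depended on single arrays and on the covariates of the fit. Leaving out 1 array left 15 calls without vehicle array 1 or atorvastatin array 6 at 48 h, 16 without atorvastatin array 8 at 48 h, and 18 and 23 without vehicle arrays 4 and 2 at 48 h. It left 26 and 29 without vehicle arrays 4 and 2 at 2 weeks, 36 and 37 without atorvastatin arrays 7 and 10 at 2 weeks, and 103 without atorvastatin array 9 at 48 h. With the mean level of 5 smooth muscle markers as a covariate 1 gene was called, and with the mean erythroid level 1. The smooth muscle mean holds the called genes Itga8 and Myh11 and nearly separates the 2 times. It thus takes up much of the time difference itself. Calls lost with it, here and below, do not tell which genes depend on smooth muscle RNA. Without vehicle array 5 at 48 h and atorvastatin array 9 at 2 weeks 36 genes were called, 28 of them among the 60. In each of the 19 fits that left out 1 array, 11 of the 60 were called: Klf2, Itga8, Myh11, Tpm2, D17H6S56E-5, Ccnb2, Kif20b, Prc1, Col8a1, Plpp1 and Sema3g. The other 49 missed the threshold in at least 1 of those fits.

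Klf2, the transcription factor that laminar flow induces in endothelium, had the smallest p of all genes. Its log2 level ran from 9.30 to 9.98 at 48 h with a median of 9.40, and from 10.15 to 10.97 at 2 weeks with a median of 10.31. Every array at 2 weeks lay above every array at 48 h. The difference was 0.88 on the log2 scale (SE 0.11, adjusted p = 0.0013), a 1.83-fold rise, with 0.88 in vehicle-treated and 0.88 in atorvastatin-treated mice. Among the earlier times the RCA mean was 10.04 ± 0.16 (SD, n = 10) at 12 h and 10.40 ± 0.30 (SD, n = 10) at 24 h, so 48 h (9.51 ± 0.24, SD, n = 9) was the low point and 2 weeks (10.38 ± 0.24, SD, n = 10) lay at the level of 24 h. With the smooth muscle level as a covariate the Klf2 difference was 0.68 (adjusted p = 0.28), and with the erythroid level 0.79 (adjusted p = 0.077). Since the smooth muscle level nearly separates the 2 times, that fit can hardly tell its effect from that of time.

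Klf2 was the 1 call among 17 tested genes of the laminar flow list, and the list's median change was -0.02. Of all tested genes, 0.587% were called, 0.108% of them all as higher, and the median change was -0.04. Klf4, the related factor, had a median log2 level of 11.13 at 48 h and 11.41 at 2 weeks (difference 0.13, SE 0.08, adjusted p = 0.54). Nos3, the endothelial nitric oxide synthase, changed by -0.09 (SE 0.13, adjusted p = 0.82), and Klk10, a secreted serine protease family member, by 0.10 (SE 0.13, adjusted p = 0.80). Thbd, the thrombin receptor thrombomodulin, changed by 0.05 (adjusted p = 0.78). The Notch ligand Dll1 of the same list was lower by value, at -0.49 (adjusted p = 0.084). The adhesion molecules of inflamed endothelium showed no call either: 0 of 11 listed genes passed, with Vcam1 at -0.02 (SE 0.14, adjusted p = 0.95; its sign changed in 5 alternative fits) and Icam1 at 0.06 (SE 0.08, adjusted p = 0.81).

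Among called genes, genes of smooth muscle rose most. Itga8, the integrin alpha8 chain of smooth muscle and mesenchymal cells, ran from 4.58 to 6.24 at 48 h with a median of 5.36 and from 5.54 to 8.75 at 2 weeks with a median of 7.82. Its difference of 2.31 (SE 0.35, adjusted p = 0.0047) was the largest rise, 4.94-fold. All 10 arrays at 2 weeks lay above the 48 h median, but vehicle array 1 at 2 weeks, at 5.54, lay inside the 48 h range. Myh11, the smooth muscle myosin heavy chain, ran from 4.36 to 6.52 at 48 h and from 6.36 to 8.14 at 2 weeks, with medians of 5.45 and 7.72 (difference 1.998, SE 0.29, adjusted p = 0.0043). Here too the lowest array at 2 weeks was vehicle array 1. A dimmer Myh11 probe set changed by 0.29. Tpm2, a tropomyosin, had medians of 6.98 and 8.75 (difference 1.76, SE 0.29, adjusted p = 0.0080), and Myl9, the regulatory light chain of smooth muscle myosin, 6.29 and 8.54 (difference 2.05, SE 0.38, adjusted p = 0.024). Hspb7, a small heat shock protein of muscle, was called at 1.27 (SE 0.26, adjusted p = 0.034), but it lay above the array median on 0 of 9 arrays at 48 h and 7 of 10 at 2 weeks. It passed the filter on low levels only through the group where it was high, so its call adds no support.

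These genes stand beside the smooth muscle marker levels above. Of 10 listed smooth muscle markers 8 were on the array by name and 5 passed the filter on low levels; 2 were called higher (Itga8 and Myh11), all 5 were on the positive side, and the median change was 0.74, against 0.108% of all genes called higher and 39.6% on the positive side. Acta2, smooth muscle actin, had a mean of 8.95 ± 0.40 (SD, n = 9) at 48 h and 9.70 ± 0.82 (SD, n = 10) at 2 weeks, a difference of 0.74 that missed the threshold (adjusted p = 0.25), and Lmod1, leiomodin, changed by 0.12 (adjusted p = 0.69). The levels were not a steady rise: at 12 h 1 vehicle array and at 24 h 1 atorvastatin array were higher than any at 2 weeks for Itga8, Myh11 and Tpm2, and the RCA means of Itga8 were 6.79 ± 1.93 (SD, n = 10) at 12 h and 6.36 ± 1.58 (SD, n = 10) at 24 h. In a fit over all 39 mice, whose shared spread takes in those arrays, Itga8 had an adjusted p of 0.089, Myh11 0.095 and Tpm2 0.088, and 0 smooth muscle markers were called. With the mean of the 5 markers as covariate, which contains Itga8 and Myh11 themselves, the Itga8 difference was 0.27, that of Myh11 0.72 and that of Tpm2 0.41. Whether smooth muscle RNA in the flush takes part in the other rises was not tested.

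**Figure D2:**
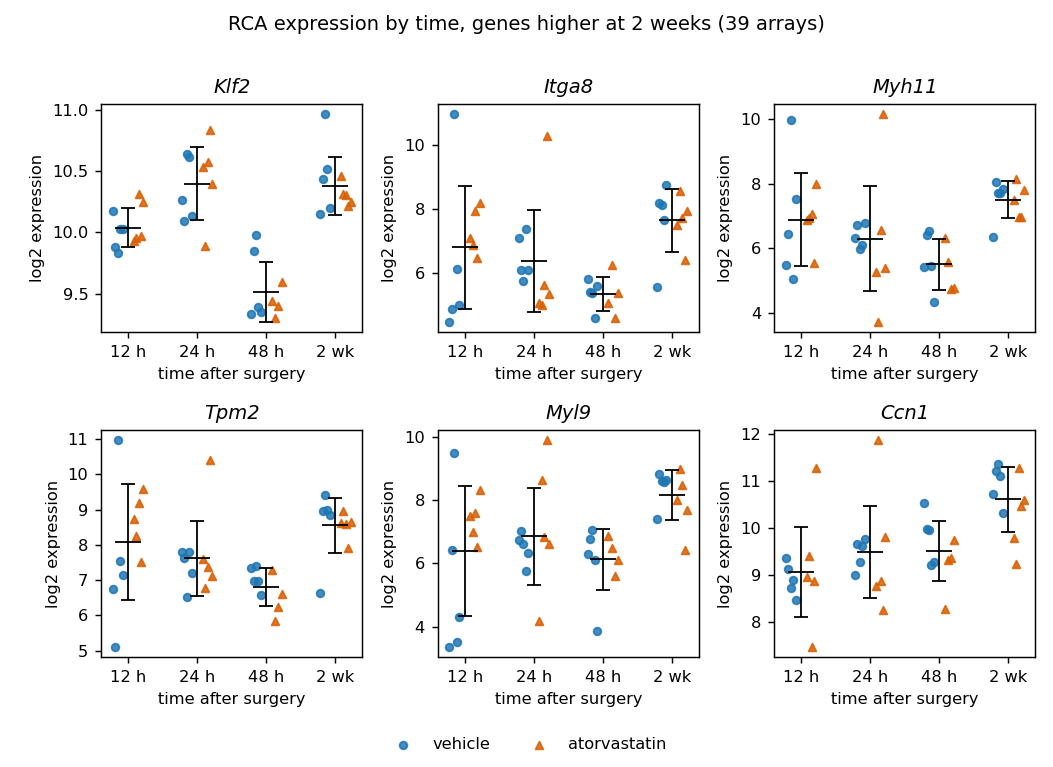
Log2 expression of 6 genes called higher at 2 weeks on each of the 39 RCA arrays (points, by treatment), with the mean and SD of each time in black. Klf2 is the gene whose 48 h and 2 week arrays do not overlap, and vehicle array 1 is the lowest of the 2 week arrays for Itga8, Myh11 and Tpm2, and atorvastatin array 9 for Myl9.

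The remaining rises were smaller and of mixed function. Ccn1, a matrix-associated protein and target of YAP, had medians of 9.37 and 10.67 (difference 1.13, SE 0.25, adjusted p = 0.045). Tcim, a small regulator of transcription, ran from 7.50 to 8.58 at 48 h and from 8.26 to 9.15 at 2 weeks (difference 0.81, SE 0.15, adjusted p = 0.026). Cyp4b1, a cytochrome P450, rose by 0.49 (SE 0.09, adjusted p = 0.029), from 9.23 to 9.77 at 48 h and from 9.73 to 10.25 at 2 weeks. Ier3, an immediate early gene, rose by 0.45 (SE 0.10, adjusted p = 0.045), and was the 1 call among 20 tested immediate early genes, whose median change was 0.27. Of all tested genes, 0.108% were called higher, and the median change was -0.04. Egr1, an early growth response factor, changed by 0.73 (adjusted p = 0.068) and Jun by 0.47 (adjusted p = 0.10).

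The eleventh called rise, a probe set annotated to Sphk2, a sphingosine kinase, is uncertain. Its RCA mean was 4.79 ± 0.82 (SD, n = 10) at 12 h, 8.97 ± 0.55 (SD, n = 10) at 24 h, 9.13 ± 0.41 (SD, n = 9) at 48 h and 9.81 ± 0.24 (SD, n = 10) at 2 weeks. The second Sphk2 probe set stood at 6.52 ± 0.50, 6.46 ± 0.33, 6.45 ± 0.31 and 6.32 ± 0.20 at the same times. Dbp, a clock output transcription factor whose gene overlaps Sphk2 on the opposite strand in RefSeq, stood at 4.57 ± 0.85, 8.43 ± 0.57, 8.73 ± 0.50 and 9.48 ± 0.33. The called probe set thus had the time course of Dbp and not that of the other Sphk2 probe set, so the call is not given as a change of Sphk2.

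Clock genes as a group showed 1 call. Clock, the transcriptional activator of the daily rhythm, ran from 6.88 to 8.19 at 48 h and from 6.55 to 7.57 at 2 weeks (difference -0.66, SE 0.15, adjusted p = 0.047), and 3 further Clock probe sets gave -0.28, -0.46 and -0.18. Of 17 tested clock genes 13 were on the positive side, with a median of 0.22. Of all tested genes, 39.6% were on the positive side and 0.48% were called lower. Near the threshold but not past it were Per2, a repressor of the rhythm, at 0.61 (adjusted p = 0.054), the nuclear receptor Nr1d2 at 0.36 (adjusted p = 0.055) and Dbp at 0.74 (adjusted p = 0.072). The mean of Nr1d2 was 6.74 ± 0.51 (SD, n = 10) at 12 h, 9.29 ± 0.22 (SD, n = 9) at 48 h and 9.66 ± 0.12 (SD, n = 10) at 2 weeks. The clock hour at which arteries were taken is not given in the sources used here.

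Mitosis genes were among the largest falls. Of 22 tested cell cycle genes 4 were called lower and 0 higher, against 0.48% of all genes called lower. On the negative side were 19 of 22, and the median was -0.28. Of the called members, Ccnb2 and Prc1 lay above the array median on 9 of 9 arrays at 48 h and 2 of 10 at 2 weeks. Cdca8 lay above it on 9 and 3. The filter on low levels asked for 4 arrays, so these genes passed it only through the group where they were high. Their calls, and the count of 4 that holds them, add no support. Ccnb2, a mitotic cyclin, ran from 4.74 to 7.22 at 48 h with a median of 6.03 and from 4.002 to 5.26 at 2 weeks with a median of 4.31. The groups overlapped in part, since 1 vehicle array at 48 h lay at 4.74. Its difference was -1.54 (SE 0.23, adjusted p = 0.0043), 2.92-fold lower. Cdca8, borealin of the chromosomal passenger complex, fell by 1.75 (SE 0.34, adjusted p = 0.030), with medians of 6.62 and 4.30. Prc1, which bundles microtubules of the spindle midzone, fell by 1.33 (SE 0.23, adjusted p = 0.014), and its second probe set changed by -0.63. Ccna2, the cyclin of S phase and mitotic entry, fell by 1.08 (SE 0.22, adjusted p = 0.034).

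Some called genes outside the list also have roles in cell division. Kif20b, a kinesin of cell division, ran from 3.95 to 5.67 at 48 h and from 2.95 to 4.36 at 2 weeks (difference -1.40, SE 0.23, adjusted p = 0.0080). It lay above the array median on 8 of 9 arrays at 48 h and 0 of 10 at 2 weeks, and Tpx2 on 7 and 0, so both passed the filter on low levels only through the group where they were high, and their calls support nothing further. Trip13, an ATPase of the spindle checkpoint, fell by 1.17 (adjusted p = 0.045), Ckap2l, a spindle protein, by 1.09 (adjusted p = 0.022), and Tpx2, an activator of Aurora A, by 0.78 (adjusted p = 0.030; named after its value was seen). Mki67, the proliferation marker, had a mean of 8.32 ± 1.15 (SD, n = 9) and 6.34 ± 1.29 (SD, n = 10), and its difference of -2.01 missed the threshold (adjusted p = 0.082), as did Birc5, survivin, at -1.08 (adjusted p = 0.072). None of the tested DNA replication genes of the list was called: Pcna, the sliding clamp, was at -0.25 (adjusted p = 0.22), the helicase subunits Mcm3, Mcm4, Mcm5, Mcm6 and Mcm7 lay between -0.44 and 0.08, and Rrm2 of ribonucleotide reductase was at -0.38 (adjusted p = 0.49). Nor were all mitotic genes called lower, with Top2a, a topoisomerase, at 0.02 (adjusted p = 0.96) and Cdc20, an activator of the anaphase-promoting complex, at -0.13 (adjusted p = 0.73). Both lay near the array medians of 4.65 to 4.74. Tpx2, which was called, started near that level too, with means of 4.95 at 48 h and 4.17 at 2 weeks. Whether the low level bears on the missing calls was not tested. The means at 48 h and 2 weeks were 4.83 and 4.84 for Top2a, and 4.92 and 4.80 for Cdc20. Of the 8 called mitosis genes, Kif20b aside, the 48 h mean was the highest of the 4 times, but the 12 h mean of Cdca8, Trip13, Tpx2 and Kif20b was nearer to the 48 h mean than to that of 2 weeks. Ccnb2 had RCA means of 4.40 ± 0.47 (SD, n = 10) at 12 h, 4.59 ± 0.35 (SD, n = 10) at 24 h, 5.95 ± 0.71 (SD, n = 9) at 48 h and 4.43 ± 0.40 (SD, n = 10) at 2 weeks, and Prc1 4.24 ± 0.34, 4.66 ± 0.59, 5.61 ± 0.64 and 4.27 ± 0.41. Kif20b differed, with 5.24 ± 0.68 at 12 h, 4.34 ± 0.44 at 24 h, 5.13 ± 0.53 at 48 h and 3.73 ± 0.50 at 2 weeks. The cell cycle count fell to 2 without any of vehicle arrays 1, 2 or 4 at 48 h, atorvastatin arrays 6 or 8 at 48 h or vehicle array 4 at 2 weeks, and was 2 with the Gapdh end ratio as covariate or without vehicle array 5 at 48 h and atorvastatin array 9 at 2 weeks, 1 with the replicate number as a block and 0 with the smooth muscle or the erythroid level as covariate. Which cells of the flush held these transcripts was not tested.

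**Figure D3:**
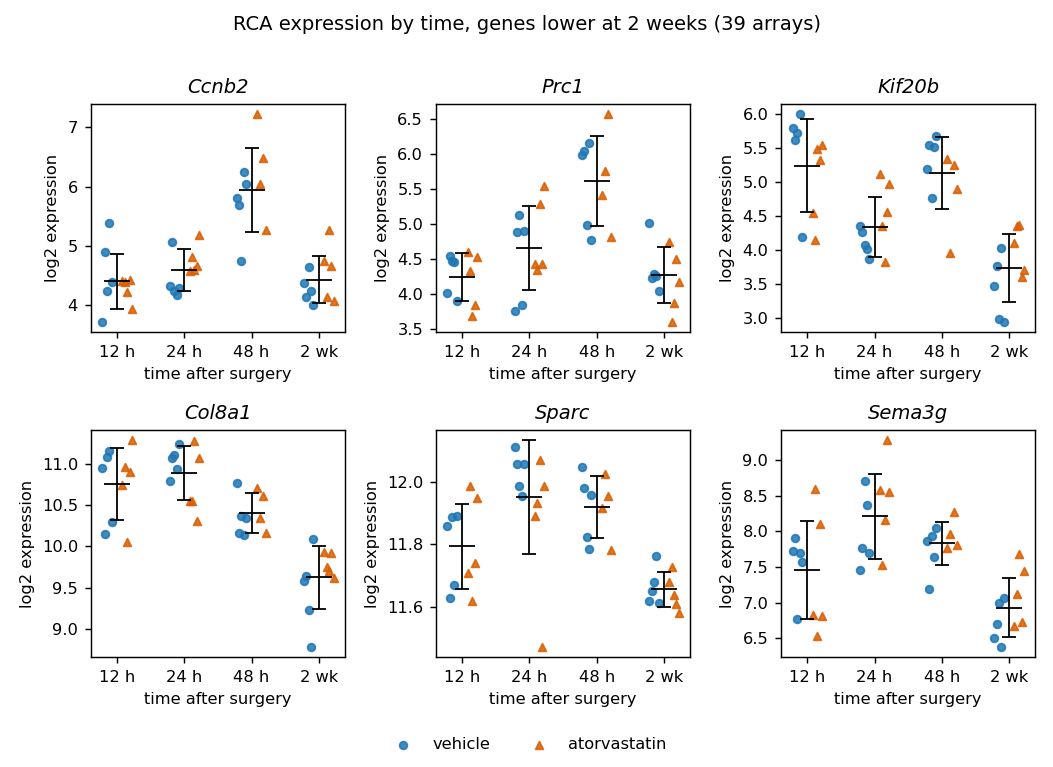
Log2 expression of 6 genes called lower at 2 weeks on each of the 39 RCA arrays (points, by treatment), with the mean and SD of each time in black. Ccnb2 and Prc1 peak at 48 h, Col8a1 and Sparc have no overlap between 48 h and 2 weeks, and Kif20b is as high at 12 h as at 48 h.

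The promoters of the mitosis genes are shown because these genes moved together. Promoters of late cell cycle genes commonly hold CCAAT boxes, bound by NF-Y, and the cell cycle homology region (CHR), bound by repressor and activator complexes. The windows are RefSeq sequences of build GRCm38.p6, 250 bases before to 50 after the start, and the first window listed for a gene was used. Of the 8 mitosis genes named above 6 had a window. Either strand was searched for CCAAT and for the CHR letters TTTGAA. The 150 bases before the start are printed for 4 genes, and capitals mark both motifs on whichever strand they lie. A CCAAT box of the other strand reads ATTGG here. The CHR letters of the other strand read TTCAAA. They lie at chr9:70421555-70421704 (- strand), chr4:124936918-124937067 (- strand), chr2:129297213-129297362 (- strand) and chr7:80294301-80294450 (+ strand).
Ccnb2: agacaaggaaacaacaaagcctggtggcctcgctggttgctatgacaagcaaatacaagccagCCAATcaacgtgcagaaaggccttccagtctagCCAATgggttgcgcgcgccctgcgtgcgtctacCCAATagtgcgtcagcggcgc
Cdca8: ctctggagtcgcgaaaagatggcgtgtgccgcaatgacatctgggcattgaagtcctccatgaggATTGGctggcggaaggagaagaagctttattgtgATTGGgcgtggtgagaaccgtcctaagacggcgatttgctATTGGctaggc
Ckap2l: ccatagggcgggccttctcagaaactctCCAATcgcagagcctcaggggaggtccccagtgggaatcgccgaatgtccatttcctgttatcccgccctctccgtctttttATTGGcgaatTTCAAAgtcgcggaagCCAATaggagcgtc
Prc1: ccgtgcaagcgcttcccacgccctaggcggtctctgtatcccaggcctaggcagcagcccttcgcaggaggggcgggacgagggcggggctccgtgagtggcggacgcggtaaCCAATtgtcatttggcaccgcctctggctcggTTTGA

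Ccnb2 and Cdca8 showed 3 CCAAT boxes each in the printed stretch. The CHR letters of Ccnb2 lay at positions 5 to 10 after the start, besides 1 match at -167, and those of Cdca8 at 14 to 19 after it. In Ckap2l a match lay at -30 to -25, between CCAAT boxes, and in Prc1 it began at -5 and crossed the start, so that 5 of its letters are printed. Kif20b held the CHR letters after the start and no CCAAT, and Trip13 held neither. In all, 5 of 6 windows held TTTGAA against 18.1% of 27025 gene promoters, 4 held CCAAT against 37.9%, and 4 held both against 7.12%. Of the 5 muscle genes named above as called higher, 4 had a window, and 1, that of Myl9, held the CArG box, the element read by serum response factor, which 1.57% of promoters held; Ckap2l and Kif20b held it as well. The genes were picked from the calls in these data, so their shares beside those of all promoters are no test of enrichment. Ccnb2, Cdca8, Prc1, Kif20b and Hspb7, which passed the filter on low levels only through 1 group, are among them. A match of letters is a description of the window and not evidence of binding.

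Some genes of the collagen and basement membrane matrix fell. Of 27 tested genes of collagen and elastic matrix, 5 were called lower and 0 higher, 24 were on the negative side, and the median was -0.38. Of all tested genes, 0.48% were called lower and 60.4% were on the negative side. Col8a1, the short-chain collagen of vessel linings, ran from 10.13 to 10.77 at 48 h with a median of 10.35 and from 8.78 to 10.08 at 2 weeks with a median of 9.67, without overlap (difference -0.79, SE 0.14, adjusted p = 0.014). Sparc, a matrix protein that binds collagen, ran from 11.78 to 12.05 and from 11.58 to 11.76, again without overlap, with a difference of only -0.26 (SE 0.06, adjusted p = 0.044). Col6a3, a chain of microfibrillar collagen, fell by 0.89 (SE 0.20, adjusted p = 0.044), and Col4a2, of the basement membrane, by 0.58 (SE 0.11, adjusted p = 0.030). Col18a1, the basement membrane collagen from which endostatin is cut, fell by 0.69 (adjusted p = 0.0497; named after its value was seen). The fibrillar collagens were lower by value without passing: Col1a1 had means of 8.70 and 7.22 (difference -1.48, SE 0.56, adjusted p = 0.24) and Col3a1 of 9.97 and 8.75 (-1.24, SE 0.51, adjusted p = 0.29). Beside these, 7 of 9 tested fibroblast markers were on the negative side with a median of -0.51 and none called, and the fibroblast ranges overlapped as given above. Dcn, Lum, Col1a1 and Mfap5 are in both the fibroblast and the matrix list, so the counts of these lists share values.

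The matrix genes did not share 1 time course. Col6a3 was lower at each later time, with RCA means of 8.80 ± 0.57 (SD, n = 10) at 12 h, 7.84 ± 0.52 (SD, n = 10) at 24 h, 6.69 ± 0.40 (SD, n = 9) at 48 h and 5.81 ± 0.47 (SD, n = 10) at 2 weeks. Col8a1 stood at 10.76 ± 0.44, 10.89 ± 0.33, 10.40 ± 0.24 and 9.63 ± 0.38, and Sparc at 11.79 ± 0.14, 11.95 ± 0.18, 11.92 ± 0.10 and 11.66 ± 0.06. Among all 49 genes called lower, the 2 week mean was the lowest of the 4 times in 44, and the 48 h mean was the highest in 18. The means at 12 h and at 24 h were both nearer to the 48 h mean in 30 of the 49. Mmp2, a gelatinase that degrades matrix, fell by 0.55 (adjusted p = 0.037), and Aebp1, a collagen-binding protein, by 0.50 (adjusted p = 0.042), both named after their values were seen. The matrix count was 1 without vehicle arrays 1 or 2 at 48 h, atorvastatin arrays 6 or 8 at 48 h or vehicle array 4 at 2 weeks, 2 or 3 without 11 other arrays, 2 when quantile-normalized once more, 3 without a filter or in the fit over all 39 mice, 1 with the Gapdh end ratio as covariate or without vehicle array 5 at 48 h and atorvastatin array 9 at 2 weeks, and 0 with the replicate number as a block or with the smooth muscle or the erythroid level as covariate.

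Plvap, which forms the diaphragms of endothelial fenestrae and caveolae, ran from 6.94 to 8.05 at 48 h with a median of 7.79 and from 5.33 to 7.41 at 2 weeks with a median of 6.76 (difference -1.01, SE 0.22, adjusted p = 0.040). Flt1, a VEGF receptor that acts as a decoy, fell by 0.42 (SE 0.09, adjusted p = 0.039), and its 2 further probe sets gave -0.68 and -0.51. They were the 2 calls among 12 tested genes of tip cells and angiopoietin signalling, whose median change was 0.04, against 0.48% of all genes called lower, with Angpt2 at 0.07 (adjusted p = 0.90) and Kdr at 0.22 (adjusted p = 0.34). Angpt2 (means 4.82 and 4.88) and Kdr (4.53 and 4.75) lay near the array medians, and whether that level bears on the missing calls was not tested. Adgrl4, an adhesion receptor of endothelium, fell by 1.09 (SE 0.23, adjusted p = 0.038), from 6.04 to 6.95 at 48 h and from 3.96 to 6.42 at 2 weeks. Sema3g, an arterial semaphorin, ran from 7.19 to 8.28 and from 6.38 to 7.68 (difference -0.92, SE 0.15, adjusted p = 0.0080); it was named after its value was seen, as were Tmem88, an inhibitor of Wnt signalling, at -0.83 (adjusted p = 0.038), Traf1, an adaptor of TNF receptors, at -0.81 (adjusted p = 0.0496), and Efnb1, an ephrin, at -0.48 (adjusted p = 0.034). Plpp1, a lipid phosphatase, fell by 0.49 (SE 0.08, adjusted p = 0.014) and Nucb1, a calcium-binding Golgi protein, by 0.38 (SE 0.08, adjusted p = 0.034), from 8.20 to 8.59 at 48 h and from 7.73 to 8.20 at 2 weeks.

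By size the falls were led by D17H6S56E-5, a gene named for its map position, which ran from 5.35 to 7.73 at 48 h and from 4.34 to 5.68 at 2 weeks (difference -1.75, SE 0.24, adjusted p = 0.0035). Every array at 2 weeks lay below the 48 h median. Dusp23, a dual-specificity phosphatase, fell by 1.10 (SE 0.21, adjusted p = 0.030) and Leo1, a subunit of the PAF1 complex of transcription elongation, by 1.09 (SE 0.21, adjusted p = 0.030). Adgra3 was called at -0.52, but its 2 further probe sets gave 0.51 and 0.16.

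**Figure D4:**
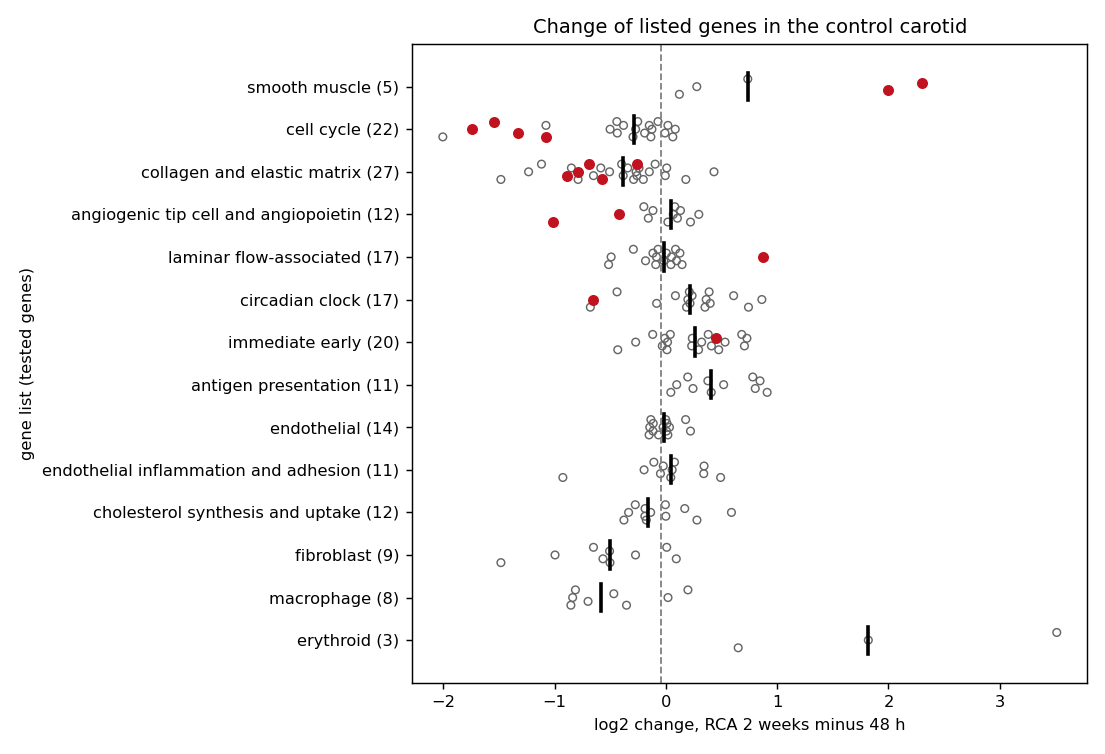
Log2 change of tested genes (points) of 14 lists between 48 h and 2 weeks in the RCA; called genes are filled red, black bars are list medians, and the dashed line is the median of all 10216 tested genes (-0.04). Called genes lie to the left in the cell cycle and matrix lists and to the right in the smooth muscle list, and the endothelial markers cluster near 0.

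Most gene lists held no call, and of all tested genes 0.587% were called. Of the 41 lists, 34 had 0 called members, 3 of which had no tested gene. Among the uncalled lists antigen presentation had 11 of 11 genes on the positive side, against 39.6% of all tested genes. Its median was 0.41, at 0.68 in vehicle-treated and 0.04 in atorvastatin-treated mice. The largest change of the list was that of Cd74, the invariant chain, at 0.91 (SE 0.65, adjusted p = 0.57). The erythroid markers were higher by value, Hba-a1, an alpha globin, from 5.94 ± 1.77 (SD, n = 9) to 9.58 ± 2.82 (SD, n = 10), a difference of 3.51 (SE 0.86, adjusted p = 0.072), the largest of all tested genes. Genes of the interferon response (14 tested, median 0.08), the unfolded protein response (22 tested, median -0.05), glycolysis and hypoxia (16 tested, median 0.01), NRF2 targets (16 tested, median 0.00) and TGF-beta and BMP signalling (22 tested, median -0.09) had medians near that of all genes. In the cholesterol list 0 of 12 tested genes were called and the median was -0.16, at -0.20 in vehicle-treated and 0.12 in atorvastatin-treated mice. Insig1, the sterol sensor, was at -0.001 (SE 0.09, adjusted p = 0.998; its sign varied between alternatives), and Hmgcs1 and Sqle, enzymes of the pathway, were above the array median on 0 of 19 arrays and were not tested.

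Within vehicle-treated mice (5 arrays against 5) 192 genes (1.88%) were called, 33 (0.323%) higher and 159 (1.56%) lower, and within atorvastatin-treated mice (5 against 4) 0 (0%) by limma, with 800 at an unadjusted p under 0.05 and 0 to 7 in other settings. The atorvastatin count was 1 to 4 without any of vehicle arrays 2, 3 or 5 or atorvastatin array 9 at 48 h, or vehicle arrays 1, 3 or 5 or atorvastatin arrays 8 or 9 at 2 weeks. With the Gapdh end ratio as covariate, which differed between the times by value under vehicle, the vehicle count was 2 and the atorvastatin count 0. The counts within treatments do not test whether the treatments differ, which the interaction of treatment and time does. It had 1 call (0.00979%), Npc1, which exports cholesterol from lysosomes. In vehicle-treated mice its log2 levels were 6.60, 6.84, 6.80, 7.06 and 6.87 at 48 h and 7.04, 7.32, 7.10, 7.18 and 7.33 at 2 weeks. In atorvastatin-treated mice they were 7.34, 7.10, 7.14 and 7.45 at 48 h and 6.25, 6.43, 6.61, 6.75 and 6.45 at 2 weeks. The level was thus higher by value at 2 weeks, by 0.36 (SE 0.11, adjusted p = 0.089) under vehicle, with arrays that just overlapped, and lower by value at -0.76 (SE 0.12, adjusted p = 0.054) under atorvastatin, without overlap. The difference between these changes was -1.12 (SE 0.16, adjusted p = 0.022). It stayed between -1.05 and -1.18 with any 1 array left out, but its adjusted p passed 0.05 (0.053 to 0.079) without vehicle arrays 1, 2 or 4 or atorvastatin arrays 6 or 9 at 48 h, or vehicle arrays 1, 2 or 4 or atorvastatin arrays 7, 9 or 10 at 2 weeks, and was 0.11 in a fit over all 39 mice and 0.061 with limma-trend. The vehicle count fell to 24, 96 and 37 without vehicle arrays 1, 2 and 5 at 48 h, to 34, 80, 117 and 81 without vehicle arrays 1, 2, 3 and 4 at 2 weeks, and to between 96 and 115 without atorvastatin array 7 at 48 h or arrays 6, 9 or 10 at 2 weeks, whose values enter through the shared spread.

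The ligated artery of the same mice changed far more, and in part the other way. In the LCA 3219 of the 10216 genes (31.5%) passed between the same times, and the change of the LCA minus RCA difference, tested per mouse, had 1527 calls (14.9%), 708 (6.93%) positive and 819 (8.02%) negative. With the smooth muscle level as covariate the LCA minus RCA test had 15 calls, 14 positive and 1 negative. That level holds Itga8 and Myh11, which this test itself called. The test had 891 calls with the replicate number as a block, 3221 with array weights and 2941 with every probe set on its own. Of the 11 genes called higher in the RCA, 9 were higher in the LCA by value and 7 were called there, 1 was called lower, and the LCA minus RCA test called 7. Of the 49 called lower, 30 were lower in the LCA by value, 11 were called lower and 6 higher, and the LCA minus RCA test called 19. The smooth muscle genes rose in both arteries: Itga8 by 6.24 (LCA) and 2.31 (RCA) (difference 3.94, SE 0.74, adjusted p = 0.0019) and Myh11 by 5.47 and 2.00 (difference 3.47, SE 0.64, adjusted p = 0.0017). Klf2 rose by 2.08 in the LCA, from a mean of 6.72 ± 0.50 (SD, n = 9) to 8.78 ± 0.67 (SD, n = 10), and so by 1.20 more than in the RCA (SE 0.24, adjusted p = 0.0026), while staying below the RCA mean at both times.

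Several matrix genes called in the RCA moved in opposite directions in the 2 arteries. For these and other genes called in the RCA, the choice on the RCA change tilts the difference and its adjusted p. Col6a3 changed by 2.38 (LCA) and -0.89 (RCA) (difference 3.27, SE 0.35, adjusted p = 1.7e-05). Col8a1 changed by 1.18 and -0.79 (difference 1.97, SE 0.25, adjusted p = 7.9e-05), Sparc by 0.48 and -0.26 (difference 0.74, SE 0.13, adjusted p = 0.0012), and Mmp2 by 1.43 and -0.55 (difference 1.98, SE 0.30, adjusted p = 3.8e-04). Over the list of collagen and elastic matrix the median was 1.08 for the ligated and -0.38 for the control artery. Ccnb2 changed by 0.44 in the LCA (adjusted p = 0.32) and -1.54 in the RCA (difference 1.99, SE 0.42, adjusted p = 0.0041). Ier3 fell by 0.70 in the LCA and rose in the RCA (difference -1.15, SE 0.19, adjusted p = 8.0e-04). For Clock, at -0.83 in the LCA, and Plvap, at -1.93, the difference between arteries missed the threshold (adjusted p = 0.67 and 0.051). The genes of smallest p in the LCA minus RCA test were not called in the control artery: Ltbp2, a matrix protein of the latent TGF-beta binding protein family, had RCA means of 4.32 and 4.41 and LCA means of 7.03 and 10.79, and Krt80, a keratin, RCA means of 10.48 and 10.67 and LCA means of 8.99 and 6.86. Gucy1a1, the nitric oxide receptor subunit, Eln, elastin, Ociad2 and Ms4a7 rose in the LCA relative to the RCA by 1.39 to 4.39, and Tinf2, Ampd3, Rpusd2 and Timeless changed by -1.28 to -1.51, while their RCA changes lay between -0.47 and 0.22. With the smooth muscle level as covariate Ltbp2, Gucy1a1, Eln, Ociad2 and Ms4a7 were still called (adjusted p from 0.0075 to 0.048), and Tinf2, Krt80, Ampd3, Rpusd2 and Timeless were not (0.050 to 0.23).

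**Figure D5:**
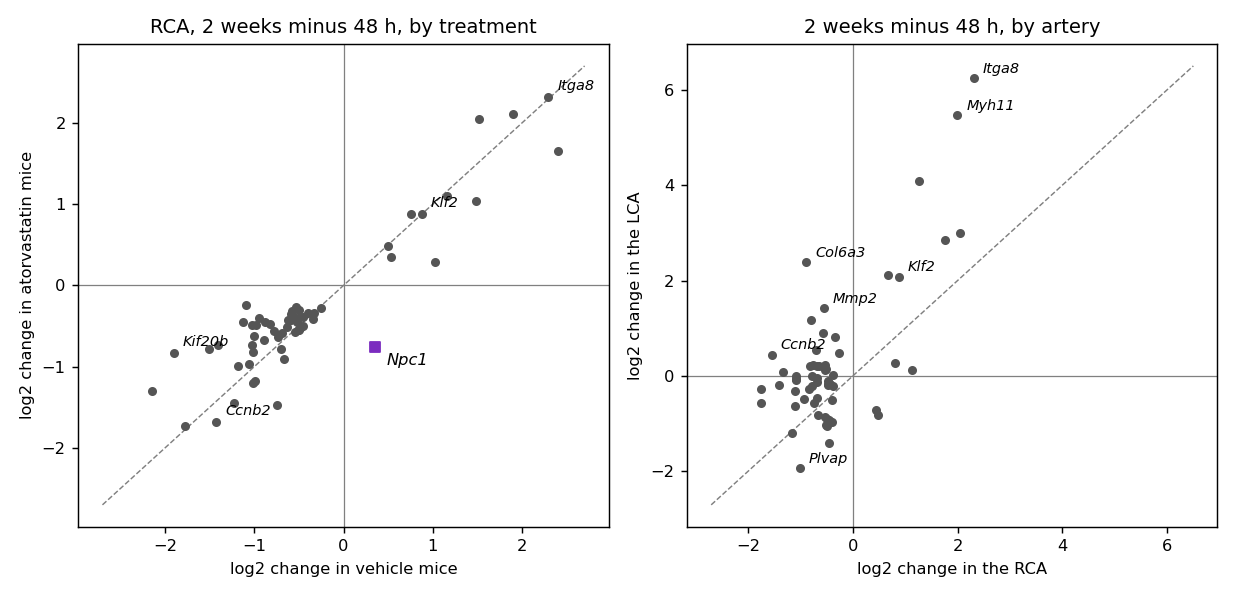
Log2 change between 48 h and 2 weeks of the 60 called genes (grey points), on the left in vehicle-treated against atorvastatin-treated mice for the RCA, with Npc1 as a square, and on the right in the RCA against the LCA of the same mice; dashed lines mark equal changes. All 60 genes have the same sign in both treatments, and Col6a3 and Mmp2 have opposite signs in the 2 arteries.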

How the data were processed

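Arrays held biotin-labelled cRNA from endothelium-enriched flushes of carotid arteries, 1 array per artery, and groups were taken from the labels. Values are log2 levels as the authors deposited them. Per the submitters' processing notes they come from RMA, whose software, version and chip file have no source here. They ran from 1.79 to 13.235, and the medians of the 19 arrays from 4.65 to 4.74, so none were rescaled. RMA gives arrays a common distribution, which hides a shift of most genes, and compresses low signals. Precision rests on the number of arrays, each replicate being a separate mouse; count depth does not apply.

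Of 45118 probe sets, 81 controls were left out, 28898 had 1 gene symbol, 551 several and 15588 none. A gene (7180 of 17097 had over 1 probe set) took the probe set of highest mean over the 19 arrays, and was tested when above the array median on at least 4 of them, which left 10216. A model of time and treatment was fitted in limma 3.58.1 (R 4.3.3, statmod 1.5.0), a model of 4 group means for changes within a treatment and the interaction, and a model of LCA minus RCA differences per mouse. Calls had a Benjamini-Hochberg adjusted p under 0.05 over all tested genes. Extraction and profiling ran in 4 batches per the labels, with no sample assigned to one, so batch and time cannot be told apart. Replicate numbers shared between times did not pair the mice (9 pairs, correlations of deviations -0.11 to 0.07).

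Of 41 gene lists with 615 genes, 542 were named on the array and 409 passed the filter. The comparison, the lists and the rule for names (the 12 largest rises and falls called with the same direction in both treatments, up to 4 called members of each list, the genes of smallest p in the interaction and in the LCA minus RCA test, and 9 flow, adhesion and sterol genes whatever their p) were chosen with earlier results of these data known. On simulated data for the 2 weeks against 48 h comparison (10216 genes, 200 changed in each of 5 runs), 52.5% of changes of log2 0.5, 94.9% of 1 and 98.5% of 2 were recovered, and 4.43% of calls were false. The simulated noise was independent between genes, without arrays that differ in cell mixture or quality. These shares therefore check the fit and do not give the recovery or false calls of the real arrays. There, leaving out 1 array gave 15 to 103 calls.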

Additional observations from a re-analysis of the deposited data

Results flagged for a closer look

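Single arrays far from the other arrays of their group were looked for in 268 pairs of a named gene and a group and 24 pairs of a marker list and a group; chance flags about 1 in 20. Vehicle array 1 at 2 weeks was low for Myl9 (7.396 against 8.586 to 8.829), Myh11 (6.363 against 7.716 to 8.048), Tpm2 (6.633 against 8.86 to 9.418), the mean smooth muscle level (5.168 against 5.85 to 6.092) and Klf4 (10.997 against 11.36 to 11.48), and high for Prc1 (5.011 against 4.045 to 4.282). With that array the contractile genes still rose, and without it 3 smooth muscle markers were called in place of 2. Atorvastatin array 9 at 2 weeks was high for the mean skeletal muscle level (8.279 against 3.67 to 3.858) and for Plpp1 (9.948). Other vehicle arrays at 2 weeks stood apart for Cdca8 (array 2, 5.522), Adgrl4 (array 4, 3.956), Ckap2l (array 5, 5.065) and Cetn4 (array 3, 6.271), and atorvastatin arrays at 2 weeks for Klf4 (array 8, 11.19), Klk10 (array 8, 10.13) and Mcfd2 (array 7, 10.18). At 48 h vehicle arrays stood apart for Cdca8 (array 3, 5.001), Adgra3 (array 5, 8.356), Eif4g3 (array 1, 8.597), Mcfd2 (array 2, 10.003) and Nxpe4 (array 3, 5.730), and atorvastatin arrays for Lpcat3 (array 6, 5.604), Naglu (array 8, 5.952), Plpp1 (array 6, 10.26) and Slc44a1 (array 7, 7.317).

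Npc1 was the gene whose change over time differed between the treatments by the interaction test (-1.12, adjusted p = 0.022).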

How the results depend on the processing

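The 60 calls became 7 with the replicate number as a block, 15 with the Gapdh end ratio as a covariate, 1 with the smooth muscle level, 103 with array weights and, in fits added after the data were seen, 1 with the erythroid level and 36 without 2 doubted arrays; other settings gave 40 to 89, and single arrays left out 15 to 103. The 192 calls under vehicle became 88 when quantile-normalized once more, 92 without a filter, 89 with all 39 mice, 6 with the replicate block, 2 with the Gapdh ratio, 16 with the smooth muscle level and 105 with array weights (24 to 248 with 1 array left out). The 0 calls under atorvastatin became 1 when quantile-normalized, with a filter on 9 arrays or with the mean of all probe sets, 5 with all 39 mice and 7 with array weights (0 to 4). The 1 interaction call became 0 with every probe set on its own, all 39 mice or limma-trend and 2 with the Gapdh ratio or array weights (0 to 4). The 1527 LCA minus RCA calls became 2941 with every probe set, 891 with the replicate block, 15 with the smooth muscle level and 3221 with array weights (1031 to 2027). The causes of these shifts were not tested. The replicate numbers do not pair the mice: 0 of 9 pairs correlated over 0.1, and 2 of 9 samples correlated best with their own number.

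Signs changed for 1 called gene, Adgra3 (0.051 with the mean of all probe sets), and for 2 uncalled ones. Vcam1 was 0.0011 after quantile normalization (-0.12 to 0.060 with 1 array left out). Insig1 was 0.023 after quantile normalization, 0.0061 with all 39 mice, 0.0080 without the treatment covariate, 0.038 with the Gapdh ratio, 0.20 with the smooth muscle level, 0.030 with array weights, 0.074 with the erythroid level and 0.053 without 2 doubted arrays (-0.031 to 0.054 with 1 array left out). The other 59 called genes kept their sign in every setting run, and 0 of the 60 were called in every setting.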
